A study of Mus musculus with 20 samples.

Results

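The Hox and T-box genes described here are 44 of the 18193 genes measured on expression arrays of mouse liver and liver tumours: 33 Hox genes, 9 in HoxA, 9 in HoxB, 7 in HoxC and 8 in HoxD, and 11 genes named Tbx with a number. They were chosen by name, from probe sets annotated with a single symbol, with Tbx4 and antisense genes left out. Where a gene has several probe sets, the brightest on average over all 20 arrays stands for it. The 44 genes have 69 such probe sets, and 17 genes have several.

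All samples came from male C57BL/6 mice carrying a conditional Apc knockout. Apc is the tumour suppressor that keeps beta-catenin, the effector of Wnt signalling, at low levels. The animals received a single intraperitoneal injection of 0.75 mg tamoxifen at 6 weeks of age and, from 1 week later, 9 months of diet. The 4 groups of 5 arrays were adenomas under 0.05% phenobarbital, carcinomas on standard chow, non-tumour liver under 0.05% phenobarbital, and non-tumour liver on standard chow (labelled H2O, here called untreated). The series' design text mentions an initiating dose of DEN, which the sample protocols do not, and which of these holds was not settled. Liver of mice without the knockout allele is not analysed here, and the labels do not name the promoter that drives the recombinase. Tumour type and diet differ together between adenomas and carcinomas and cannot be told apart in this design. Whether the 5 samples of each group are 5 mice is not stated, so a p-value covers sample-to-sample spread, which may be technical.

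Hox genes encode homeodomain transcription factors and lie in 4 clusters, in which gene order follows the order of expression along the body axis of the embryo. Polycomb complexes keep the clusters silent where they are not used, Trithorax complexes keep them active, and retinoic acid switches on the genes at the 3′ end of a cluster first. T-box genes encode transcription factors that share the T-box DNA-binding domain: Tbx3 is needed for the expansion of embryonic hepatoblasts and has been reported as a Wnt target in liver tumours, while Tbx1 is best known from the pharyngeal region and Tbx20 and Tbx5 from the heart.

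The genes divided sharply in carcinomas. Hoxd8, Hoxd9 and Hoxd10, which lie next to each other, and Tbx1 rose by more than 5 log2 units in carcinomas, while Hoxd11 and Hoxd12, beside Hoxd10, did not pass the test. In adenomas none of the 33 Hox genes passed the test, and Tbx3 was the only gene that rose. The promoters of Hoxd8, Hoxd9, Hoxd10 and Hoxd11 are printed here because the first 3 of these neighbours rose in carcinomas and Hoxd11 did not pass. Each sequence runs 5′ to 3′ from 250 bases before to 50 bases after an annotated start, from RefSeq with build GRCm38.p6, and Hoxd11 is shown by the nearer to Hoxd10 of its 2 windows. Capitals mark matches to 3 short motifs: CTTTGAT, a TCF/LEF site, in Hoxd8, GGTGTGA, a T-box half-site, in Hoxd9, and TAATTA, a homeodomain core, in Hoxd11. The fourth motif searched was TATAAA, and no letters of the Hoxd10 window matched any of them.
Hoxd8 (chr2:74704365-74704664, + strand): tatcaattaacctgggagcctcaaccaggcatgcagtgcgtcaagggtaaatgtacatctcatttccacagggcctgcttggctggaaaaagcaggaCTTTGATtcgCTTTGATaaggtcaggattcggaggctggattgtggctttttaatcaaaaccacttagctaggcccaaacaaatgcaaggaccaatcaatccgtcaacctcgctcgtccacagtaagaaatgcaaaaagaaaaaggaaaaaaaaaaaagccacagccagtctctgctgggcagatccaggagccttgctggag
Hoxd9 (chr2:74697513-74697812, + strand): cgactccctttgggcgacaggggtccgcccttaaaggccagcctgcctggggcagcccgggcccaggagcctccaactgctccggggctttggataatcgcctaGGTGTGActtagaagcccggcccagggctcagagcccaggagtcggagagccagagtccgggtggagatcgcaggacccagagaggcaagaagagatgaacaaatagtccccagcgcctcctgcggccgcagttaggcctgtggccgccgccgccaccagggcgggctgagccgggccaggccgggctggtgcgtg
Hoxd10 (chr2:74691641-74691940, + strand): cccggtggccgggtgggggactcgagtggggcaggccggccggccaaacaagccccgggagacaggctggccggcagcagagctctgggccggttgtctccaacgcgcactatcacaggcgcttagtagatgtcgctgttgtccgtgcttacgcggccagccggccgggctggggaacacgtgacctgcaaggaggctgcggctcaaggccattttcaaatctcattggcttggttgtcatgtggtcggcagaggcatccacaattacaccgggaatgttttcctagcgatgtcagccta
Hoxd11 (chr2:74682073-74682372, + strand): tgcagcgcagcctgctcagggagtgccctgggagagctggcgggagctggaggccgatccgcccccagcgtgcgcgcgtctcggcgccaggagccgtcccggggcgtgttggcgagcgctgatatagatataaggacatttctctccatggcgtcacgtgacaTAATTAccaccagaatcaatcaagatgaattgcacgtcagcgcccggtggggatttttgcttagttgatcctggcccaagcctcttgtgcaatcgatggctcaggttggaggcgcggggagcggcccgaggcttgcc

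Of the 44 genes, 26 had a promoter in the RefSeq table, with 31 windows. CTTTGAT, searched on both strands like the other motifs, lay in 1 of these 31 windows (3.23%) and in 3.73% of all 32841 windows. The Hoxd8 window held it 2 times, starting 153 and 143 bases before the start of the transcript. GGTGTGA was in 1 window (3.23%), that of Hoxd9, against 3.98% of all windows. TAATTA was in 4 windows (12.9%), both of Hoxd11 among them, against 5.29% of all windows, and TATAAA in 3 (9.68%) against 13.6%. The windows of the Hox and T-box genes held a median of 15 CpG dinucleotides against 7 in all windows, with 6 in Hoxd8, 20 in Hoxd9, 22 in Hoxd10 and 25 in the printed window of Hoxd11.

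Values are the authors' log2 expression values, on which a difference of 1 is 2-fold. Each gene was tested with limma, adjusted p-values are Benjamini-Hochberg values over all 18193 genes, and a gene is said to rise, fall or pass the test where its adjusted p was under 0.05. Differences are given with their standard error (SE). Levels of different probe sets are not comparable, so a dim gene was judged against 38 olfactory receptor genes, which liver is not known to use. The 95th percentile of their group means was 5.27 in adenomas, 5.03 in carcinomas, 5.51 in phenobarbital-treated non-tumour liver and 5.36 in untreated non-tumour liver. The number of Hox and T-box genes above that level was 12 of 44 in adenomas, 20 in carcinomas, 10 in non-tumour liver under phenobarbital and 11 in the untreated samples. Hoxa3, Hoxa5, Hoxa7, Hoxa9, Hoxb2, Hoxb3, Hoxc6, Hoxc9, Hoxd8 and Tbx3 were above it in every group. Hoxc4, Hoxc5, Hoxc8, Hoxd3, Hoxd9, Hoxd10, Tbx2, Tbx5 and Tbx20 were above it in carcinomas only, as a description of group means. The level itself was lowest in carcinomas, at 5.03, so a gene can exceed it there without being higher, which adds to their count. Tbx5 is such a gene: its mean was 5.27 in carcinomas and 5.27 in phenobarbital-treated liver free of tumour, and it passed in no comparison.

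Pairs of arrays correlated at 0.970 to 0.986 within adenomas, 0.957 to 0.988 within carcinomas, 0.994 to 0.995 within phenobarbital-treated liver and 0.986 to 0.994 within untreated non-tumour liver. Untreated arrays 3 and 4, which an earlier account of these data set apart, are left out together where that changes a call. The summed level of 8 hepatocyte markers (Alb, the serum albumin gene, and others) lay between 16.8 and 17.1 log2 units in adenomas, 10.9 and 15.6 in carcinomas, 17.2 and 17.3 in non-tumour liver under phenobarbital and 17.3 and 17.4 in untreated samples without tumour. In bulk tissue, fewer cells of a type and less RNA per cell cannot be told apart.

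The comparison of carcinomas with untreated non-tumour liver asks which genes differ in tumours that arose without the drug. Of the 44 genes, 12 rose and 12 fell, against 31.5% and 37.7% of all genes, so the share that passed in either direction (54.5%) was below that of all genes (69.2%). At least 2-fold, 10 of the 44 genes (22.7%) rose, against 16.9% of all genes tested. None of the 44 fell at least 2-fold, against 11.4% of all genes and 0 of the 38 olfactory receptor genes. Only 11 of the 44 were above the olfactory receptor level in untreated non-tumour liver. How far the dim ones could fall on these arrays was not tested. All carcinomas lay above all untreated non-tumour samples for 9 genes, against 25.6% of all genes, and below them for 6, against 27.8%. The median log2 difference was -0.05 over the 44 genes and -0.12 over all genes, with -0.25 in HoxA, -0.26 in HoxB, 0.38 in HoxC, 1.18 in HoxD and 0.36 among the Tbx genes.

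**Figure D1:**
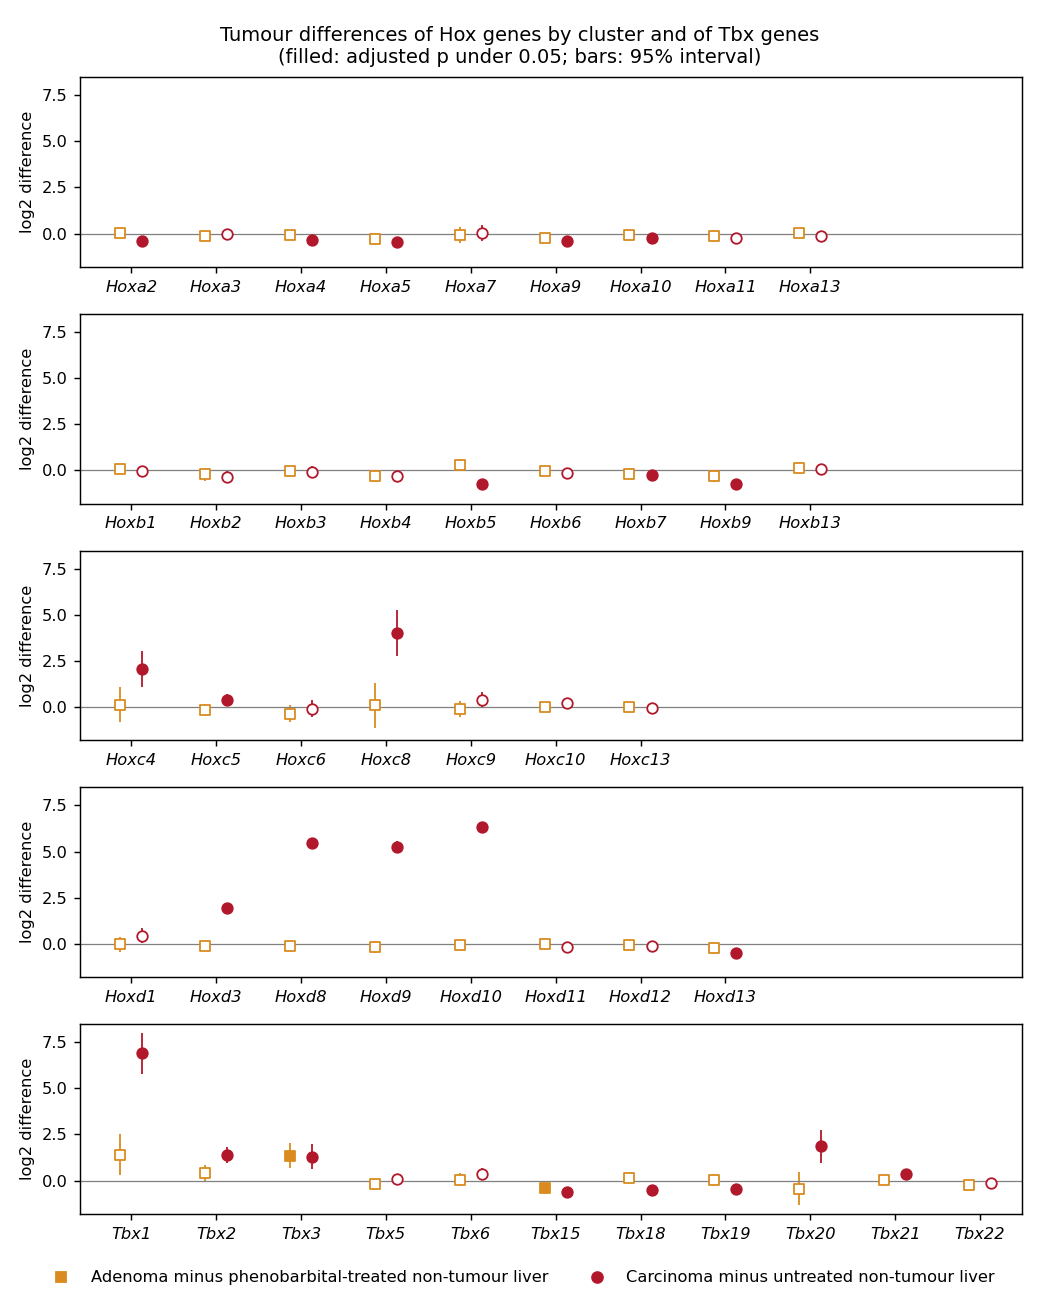
Log2 difference (y axis) of each Hox gene by cluster and of each Tbx gene (x axis, in order of gene number), in adenomas against phenobarbital-treated non-tumour liver (orange squares) and in carcinomas against untreated non-tumour liver (red circles), with 95% intervals from limma and filled symbols for adjusted p under 0.05. Hoxd8, Hoxd9, Hoxd10 and Tbx1 stand above 5 in carcinomas, the HoxA and HoxB genes lie between -0.76 and 0.09, and the adenoma values of Hox genes lie between -0.34 and 0.30.

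In HoxD, 4 of 8 genes rose and 1 fell in carcinomas. Hoxd10, a patterning gene of limbs and spinal cord, had 9.61, 9.80, 9.91, 10.22 and 9.84 in carcinomas, against 3.60, 3.34, 3.24, 3.79 and 3.71 in untreated non-tumour liver. The lowest carcinoma was more than 5 units above the highest non-tumour sample, and the difference was 6.34 ± 0.12 (SE, n = 5 each; 80.9-fold, adjusted p = 1.1e-18). Hoxd9 had 10.48, 10.30, 9.98, 9.96 and 10.82 in carcinomas, against 5.05, 5.43, 4.88, 5.06 and 4.91 in untreated non-tumour liver, a difference of 5.24 ± 0.15 (adjusted p = 4.8e-16). Hoxd8, the neighbour of Hoxd9, had 11.09, 11.06, 10.96, 10.85 and 11.03 in carcinomas, against 5.52, 5.47, 5.72, 5.59 and 5.31 in untreated non-tumour liver, and differed by 5.47 ± 0.09 (adjusted p = 2e-19). For all 3 of these genes the carcinomas formed a tight group, with SDs of 0.09 for Hoxd8, 0.36 for Hoxd9 and 0.22 for Hoxd10. The other probe set of Hoxd8 differed by 5.61, close to the 5.47 of the one used.

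Hoxd3, a gene towards the 3′ end of the cluster, had 5.58, 5.86, 5.81, 5.49 and 5.94 in carcinomas, against 3.67, 4.06, 4.03, 3.53 and 3.79 in untreated non-tumour liver. All carcinomas were again above all non-tumour samples, by a smaller amount of 1.92 ± 0.13 (3.79-fold, adjusted p = 6.2e-11). Hoxd1, at the 3′ end, differed by 0.43 ± 0.19 and did not pass (adjusted p = 0.055), and its groups overlapped: 3.93, 4.03, 4.90, 5.06 and 4.31 in carcinomas against 4.42, 3.68, 3.97, 4.0 and 3.99 in untreated non-tumour liver.

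Beyond Hoxd10 on the 5′ side the picture was different. Hoxd11 had 3.97, 4.25, 4.18, 4.64 and 4.41 in carcinomas, against 4.29, 4.52, 4.43, 4.55 and 4.58 in untreated non-tumour liver. The groups overlapped, and the difference of -0.19 did not pass (95% interval -0.43 to 0.06, adjusted p = 0.17). Hoxd12 differed by -0.13 (95% interval -0.33 to 0.07, adjusted p = 0.24). Both were below the olfactory receptor level in every group. Each has 1 probe set, and whether it detects its transcript was not tested. Hoxd13, at the 5′ end and known for its part in forming the digits, fell by 0.48 on the probe set used (adjusted p = 0.0042), but a second probe set of Hoxd13 differed by 0.74 in the opposite direction (adjusted p = 0.046), so no direction is given for it.

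**Figure D2:**
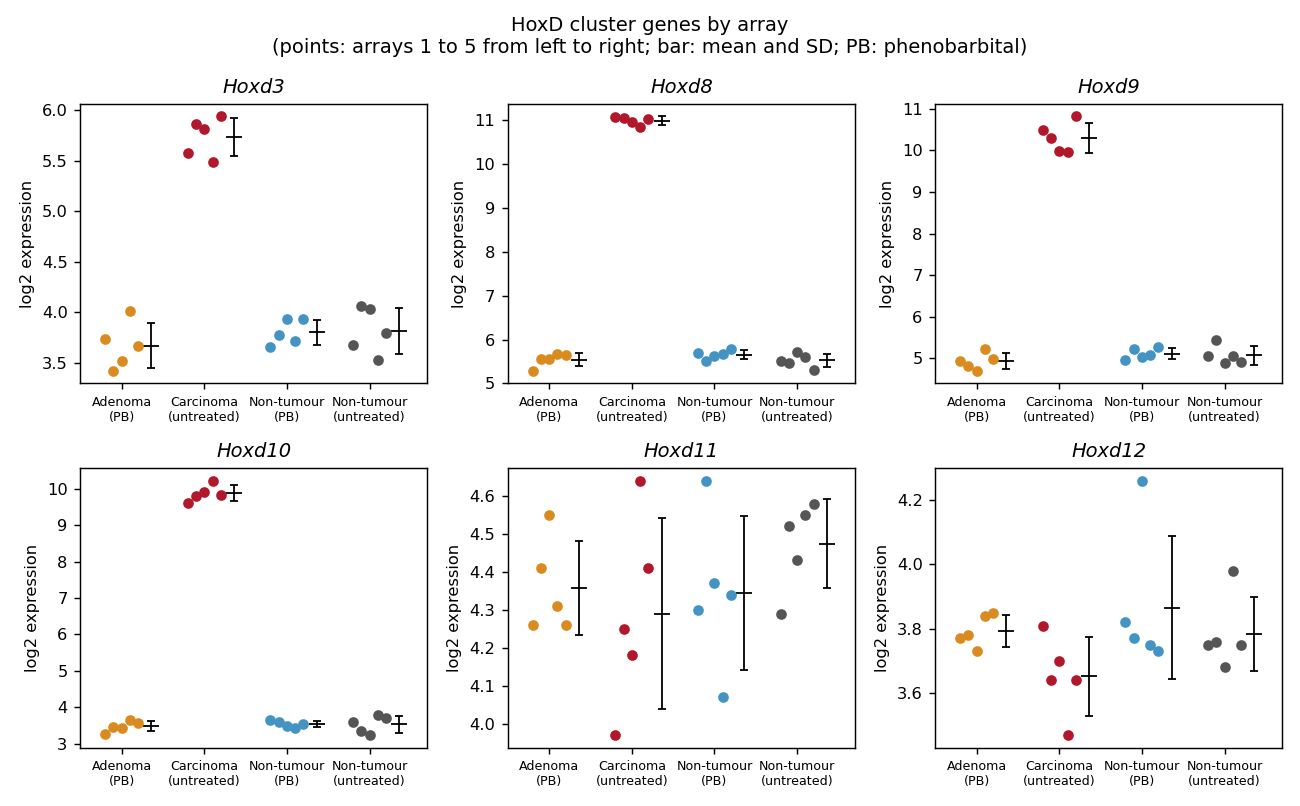
Log2 expression (y axis) of Hoxd3, Hoxd8, Hoxd9, Hoxd10, Hoxd11 and Hoxd12 on each of the 20 arrays, by group (x axis), with the mean and SD beside the points; each panel has its own y range. The 5 carcinomas stand apart from the other groups for the first 4 genes and overlap them for Hoxd11 and Hoxd12.

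Genes next to HoxD were read from the same fit, with their order from RefSeq. Evx2, the homeobox gene just beyond Hoxd13, fell in carcinomas by 0.70 (adjusted p = 0.00024), and Lnpk, the next gene, rose by 1.71 (adjusted p = 9.7e-09). Atp5g3, beyond Lnpk, fell by 0.43 (adjusted p = 0.00021). On the other side Mtx2, a mitochondrial import gene, fell by 0.33 (adjusted p = 0.021), Nfe2l2, which encodes NRF2, fell by 0.34 (adjusted p = 0.021), and Agps rose by 2.14 (adjusted p = 2.6e-11). The flanks therefore held changes in both directions, of up to 2.14 units in the 3 genes on each side. Each of these genes passed, where 69.2% of all genes did.

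HoxC showed a different kind of change, in which the carcinomas disagreed among themselves. Hoxc8, a gene of the mid-trunk, had 4.53, 8.78, 5.81, 8.73 and 8.89 in carcinomas, against 3.34, 3.29, 3.19, 3.46 and 3.43 in untreated non-tumour liver. Every carcinoma lay above the non-tumour samples, with carcinomas 1 and 3 far below the other 3, and the difference was 4.01 ± 0.59 (16.1-fold, adjusted p = 6.8e-06). The SD of Hoxc8 in carcinomas was 2.04, the largest of any of the 44 genes in that group, where the median SD was 0.22 over the 44 genes and 0.21 over all genes. Hoxc4 had 4.59, 7.93, 6.29, 7.73 and 8.34 in carcinomas, against 4.86, 5.0, 4.90, 4.63 and 5.14 in untreated non-tumour liver. Carcinoma 1 was below all of the untreated samples for Hoxc4 and the other 4 were above them, and the gene rose by 2.07 ± 0.46 (adjusted p = 0.00053).

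Hoxc5 rose by 0.38 ± 0.16 (adjusted p = 0.042) on the probe set used, and its other probe sets differed by 2.30 (adjusted p = 1.3e-05) and 0.30 (adjusted p = 0.18). The call on the probe set used ended with each array centred on its median (adjusted p = 0.082) and when only carcinomas and untreated non-tumour liver were fitted (0.091), and in 12 of 29 alternatives in all, among them the fits without carcinoma 2, 4 or 5 or without untreated array 1, 2, 4 or 5 (adjusted p up to 0.15). Hoxc9, Hoxc6, Hoxc10 and Hoxc13 did not pass. Hoxc9 also had its lowest values in carcinomas 1 and 3, with 6.28, 7.57, 6.78, 7.74 and 7.59 in carcinomas, against 6.64, 7.04, 6.71, 6.63 and 6.98 in untreated non-tumour liver. In 5 of the 7 HoxC genes (Hoxc4, Hoxc5, Hoxc6, Hoxc8 and Hoxc9) carcinomas 1 and 3 were the lowest 2 of the 5, a description of these arrays with no test. Among markers of other cells, the sum of the 10 endothelial markers was 9.99, 9.14, 9.92, 9.47 and 9.44 in carcinomas 1 to 5. It was highest in carcinomas 1 and 3. The 13 stellate cell and fibroblast markers summed to 15.88, 15.62, 14.61, 15.41 and 15.67, highest in carcinoma 1 and lowest in carcinoma 3. For hepatocyte markers the sums were 15.43, 10.86, 15.05, 15.57 and 13.90, lowest in carcinomas 2 and 5. The part of these cells in the HoxC values was not tested.

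**Figure D3:**
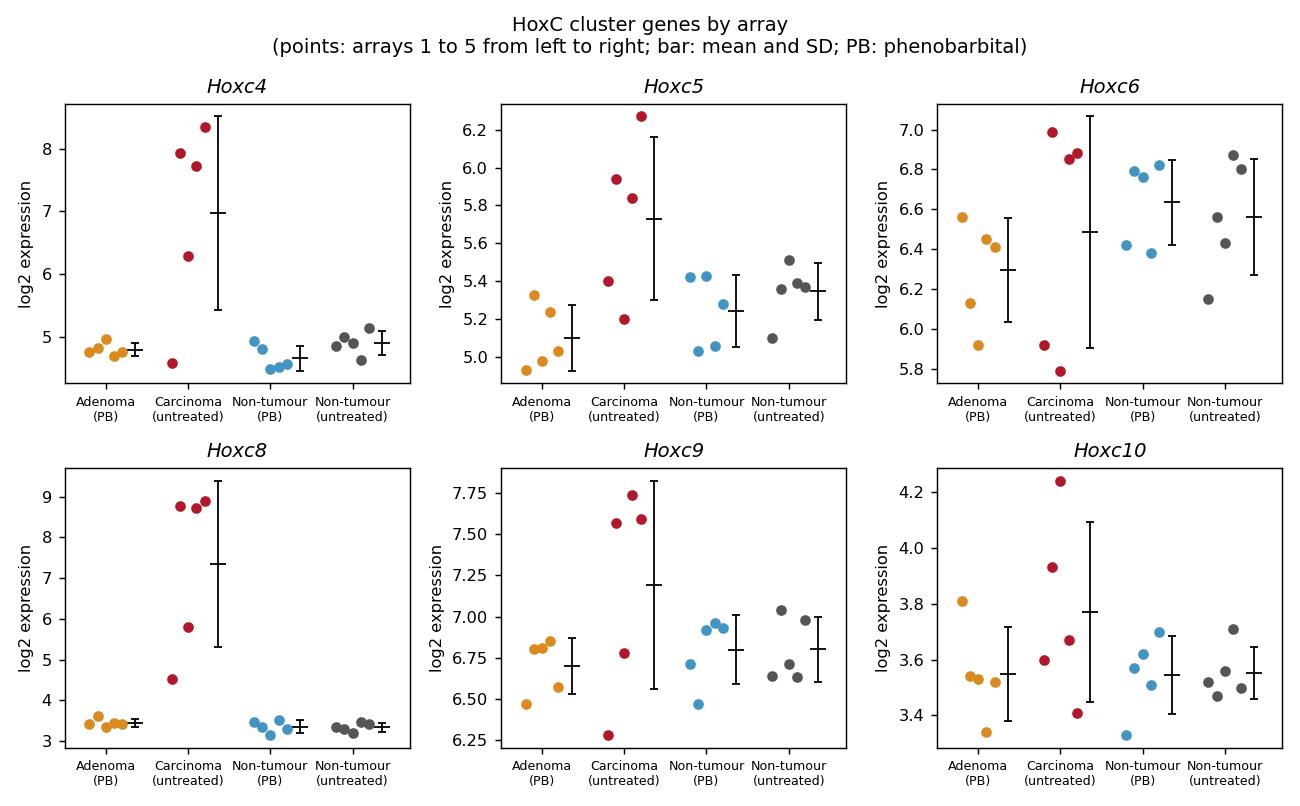
Log2 expression (y axis) of 6 HoxC genes on each of the 20 arrays, by group (x axis), with the mean and SD beside the points; each panel has its own y range. For Hoxc4, Hoxc5, Hoxc6, Hoxc8 and Hoxc9 carcinomas 1 and 3 are the lowest 2 of the 5, and for Hoxc8 all 5 are above the other groups.

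No HoxA or HoxB gene rose in carcinomas. In HoxA 5 of 9 fell (Hoxa2, Hoxa4, Hoxa5, Hoxa9 and Hoxa10) and in HoxB 3 of 9 (Hoxb5, Hoxb7 and Hoxb9). The largest of these falls were those of Hoxb5, with 3.57, 3.40, 3.56, 3.63 and 3.30 in carcinomas against 4.30, 4.46, 4.43, 3.98 and 4.07 in untreated non-tumour liver (-0.76 ± 0.14, adjusted p = 0.00011), and of Hoxb9, with 4.25, 4.74, 4.30, 4.58 and 4.17 in carcinomas against 5.35, 5.39, 4.88, 5.16 and 5.04 in untreated non-tumour liver (-0.76 ± 0.14, adjusted p = 7.2e-05). Neither pair of groups overlapped. The calls of Hoxa10 and Hoxb7 were less stable: that of Hoxa10 ended in 12 of 29 alternatives, among them the fits without carcinoma 1, 2, 3 or 4 or untreated array 1, 2, 3 or 4 (adjusted p up to 0.39), and that of Hoxb7 in 4, among them the fits without carcinoma 5 or untreated array 5 (adjusted p up to 0.29). All 12 falls of Hox and T-box genes lay between -0.23 and -0.76, and of these genes only Hoxa5, Hoxa9 and Tbx19 were above the olfactory receptor level in untreated non-tumour liver.

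The olfactory receptor genes themselves fell in 27 of 38 cases (71.1%) in carcinomas, with a median of -0.38 and a range of -0.83 to 0.03, and none rose. The 12 falls were therefore of the size found for genes that liver is not known to use, and what part of them is expression was not tested. The second probe sets of Hoxa5 and Hoxa9 did not pass in carcinomas, and those calls ended with the mean of all probe sets (Hoxa5 -0.34, adjusted p = 0.23; Hoxa9 -0.19, adjusted p = 0.24). Hoxa7 did not pass, but carcinoma 3 had 7.31 where the other 4 had 5.84 to 5.98 and untreated non-tumour liver 5.97 to 6.24. The homeobox gene Evx1, next to HoxA, rose by 1.33 in carcinomas (adjusted p = 4e-04).

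Among the T-box genes 5 of 11 rose and 3 fell in carcinomas. Tbx1 had 12.02, 11.83, 11.60, 12.04 and 12.14 in carcinomas, against 4.84, 5.04, 4.70, 5.74 and 4.82 in untreated non-tumour liver. The groups were more than 5 units apart, and the difference of 6.90 ± 0.53 (119-fold, adjusted p = 6e-10) was the largest of the 44 genes. Tbx2, which encodes a repressor related to Tbx3, had 6.38, 6.05, 5.52, 6.13 and 6.43 in carcinomas, against 4.76, 4.76, 5.04, 4.72 and 4.23 in untreated non-tumour liver, and rose by 1.40 ± 0.20 (2.64-fold, adjusted p = 4.1e-06) with no overlap.

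Tbx20, a cardiac T-box gene, had 6.84, 5.86, 5.43, 7.69 and 6.29 in carcinomas, against 4.03, 3.78, 5.57, 4.77 and 4.67 in untreated non-tumour liver. Carcinoma 3 lay below untreated array 3, so the groups overlapped, and the gene rose by 1.86 ± 0.42 (adjusted p = 0.00072). The other probe sets of Tbx20 differed by 0.81 (adjusted p = 0.011) and by -0.45 (adjusted p = 0.0059), so they disagreed in direction. The summed level of 9 skeletal and heart muscle markers was 8.16 to 8.42 in adenomas, 10.49 to 13.83 in carcinomas, 8.23 to 8.50 in non-tumour liver under phenobarbital and 8.19 to 8.37 in untreated non-tumour liver. Of these 9 markers, 2 rose in carcinomas, Tnnt2, which encodes cardiac troponin T, by 8.45 and the skeletal muscle actin gene Acta1 by 2.19, and 5 fell (Myh1, Myh4, Ckm, Actc1 and Nkx2-5). Myh1, Myh4, Myod1 and Myh6 were at the olfactory receptor level in every group, and the part of muscle in the Tbx20 values was not tested.

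Tbx21, which encodes T-bet of T and natural killer cells, rose by 0.36 ± 0.13 (adjusted p = 0.022), with 4.19, 4.22, 4.18, 4.01 and 4.66 in carcinomas against 3.82, 3.92, 3.92, 3.85 and 3.93 in untreated non-tumour liver. The groups did not overlap, but all values were below the olfactory receptor level, and the call ended without carcinoma 5 (0.26, adjusted p = 0.077). The 14 T and natural killer cell markers summed to 9.56 to 10.3 in adenomas, 9.50 to 10.62 in carcinomas, 9.43 to 9.76 in non-tumour liver under phenobarbital and 9.41 to 10.1 in untreated non-tumour liver. Of these 14 markers, 4 rose in carcinomas (Ccl5 by 1.40, Cd3g by 0.93, Cd3d by 0.64 and Nkg7 by 0.59) and 5 fell (Cd3e, Cd8a, Cd4, Gzma and Prf1). Ncr1, Klrk1, Eomes and Prf1 were at the olfactory receptor level in every group, and the part of these cells in the Tbx21 values was not tested. Tbx15, a skeletal patterning gene, fell by 0.61 (adjusted p = 0.00085), Tbx18, known from the heart and ureter, fell by 0.49 (adjusted p = 0.0013), and Tbx19, the pituitary factor Tpit, fell by 0.46 (adjusted p = 0.0055). Tbx5, Tbx6 and Tbx22 did not pass.

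Tbx3 was the only gene of the 44 that rose in both kinds of tumour. It had 10.02, 10.45, 9.86, 9.42 and 10.30 in adenomas, against 8.66, 8.63, 8.77, 8.71 and 8.53 in phenobarbital-treated non-tumour liver. All adenomas were above all non-tumour samples, by 1.35 ± 0.32 (2.55-fold, adjusted p = 0.0043). In the other pair it had 9.59, 9.32, 9.69, 11.46 and 9.65 in carcinomas, against 8.99, 9.18, 7.89, 8.25 and 8.93 in untreated non-tumour liver. These groups did not overlap either, carcinoma 4 stood above the rest, and the difference was 1.30 ± 0.32 (2.45-fold, adjusted p = 0.0015). The difference between the adenoma and the carcinoma effect was 0.05 (95% interval -0.90 to 1.01, adjusted p = 0.93).

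The 5 probe sets of Tbx3 did not act alike. A second one rose in both kinds of tumour, by 1.26 in adenomas (adjusted p = 0.0084) and 1.66 in carcinomas (adjusted p = 0.00017). Another fell by 0.29 in carcinomas (adjusted p = 0.026), and the other two did not pass in either comparison. With the mean of all 5 probe sets the adenoma difference was 0.59 and missed the threshold (adjusted p = 0.051).

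**Figure D4:**
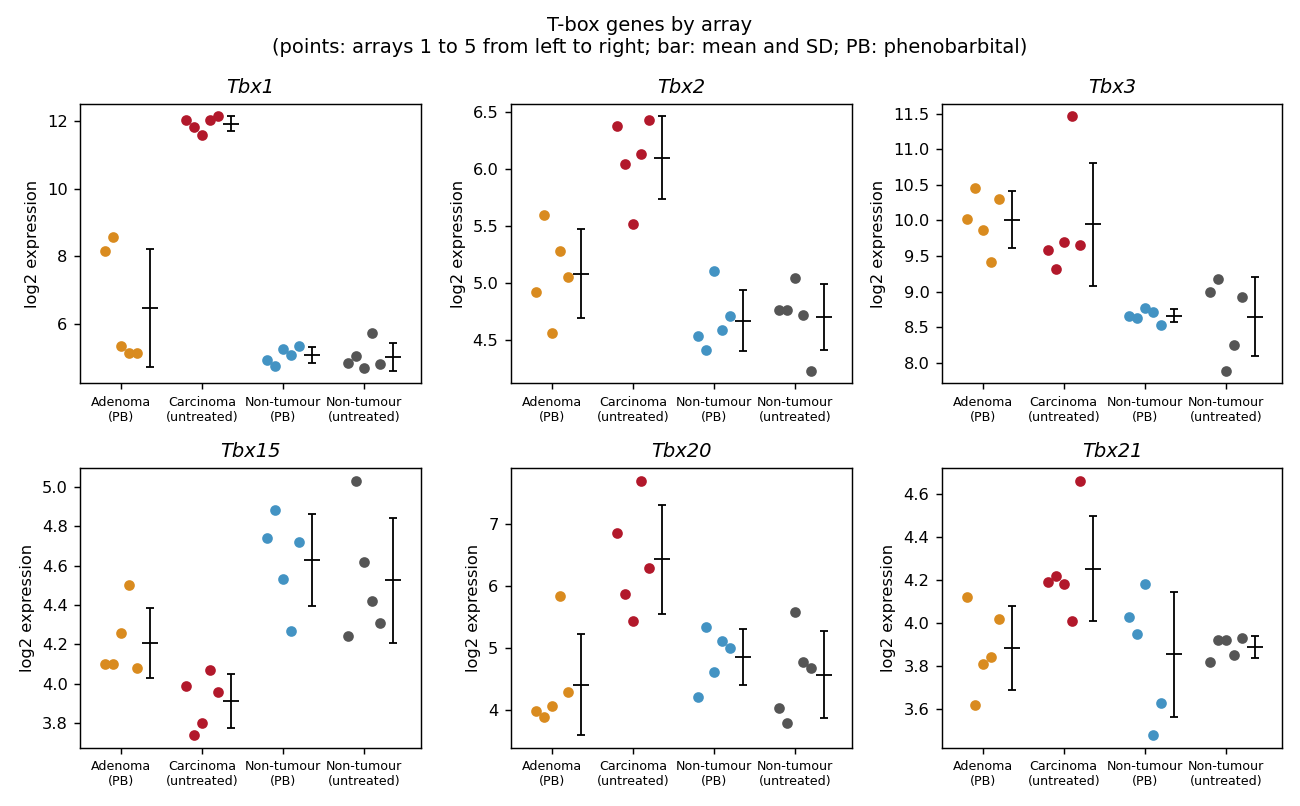
Log2 expression (y axis) of 6 T-box genes on each of the 20 arrays, by group (x axis), with the mean and SD beside the points; each panel has its own y range. Tbx1 is at 11.60 to 12.14 in all carcinomas and above 8 in 2 of 5 adenomas, and Tbx3 is higher in both kinds of tumour than in the non-tumour group of the same diet.

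In adenomas 1 of the 44 genes rose, Tbx3, and 1 fell, Tbx15, against 13.5% and 11.3% of all genes; at least 2-fold the counts were 1 and 0, against 4.01% and 2.48%. All adenomas lay above all phenobarbital-treated non-tumour samples for 1 gene, against 10.4% of all genes. The share that passed, 4.55%, was below the 24.7% of all genes. None of the 38 olfactory receptor genes passed here either. Above their level were 12 of the 44 genes in adenomas and 10 in phenobarbital-treated non-tumour liver. Whether the probe sets of the dimmer genes detect their transcripts was not tested. At an unadjusted p under 0.05, 8 of the 44 differed, against 35.8% of all genes. None of the 33 Hox genes passed: their differences lay between -0.34 and 0.30, the smallest adjusted p was 0.091, and the widest interval, that of Hoxc8, was -1.15 to 1.33. Hoxd8 (-0.11), Hoxd9 (-0.17) and Hoxd10 had levels in adenomas close to those of phenobarbital-treated non-tumour liver, while Tbx1, described below, did not in every adenoma. Hoxd10 had 3.27, 3.47, 3.44, 3.64 and 3.56 in adenomas, against 3.64, 3.59, 3.49, 3.42 and 3.55 in phenobarbital-treated non-tumour liver, a difference of -0.06 (95% interval -0.30 to 0.19). Tbx15 had 4.10, 4.10, 4.26, 4.50 and 4.08 in adenomas, against 4.74, 4.88, 4.53, 4.27 and 4.72 in phenobarbital-treated non-tumour liver, with overlap (-0.42 ± 0.14, adjusted p = 0.037). It lost its call in 13 of 29 alternative settings (adjusted p up to 0.11). The second probe set of Tbx15 differed by 0.02 and did not pass, and the one used was below the olfactory receptor level in every group.

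Tbx1 split the adenomas. It had 8.16 and 8.58 in adenomas 1 and 2 and 5.35, 5.14 and 5.13 in adenomas 3 to 5, against 4.92, 4.75, 5.26, 5.07 and 5.35 in phenobarbital-treated non-tumour liver. Adenomas 3 to 5 were within or at the edge of the non-tumour range, and the difference of 1.40 ± 0.53 missed the threshold (adjusted p = 0.059). It passed when any of these 3 adenomas was left out (adjusted p = 0.020 to 0.032). They are the lowest 3 of the 5, so leaving any of them out raises the adenoma mean, and these fits are no support for a rise. The SD of Tbx1 in adenomas, 1.74, was the largest of the 44 genes in that group, where the median SD was 0.18. Adenomas 1 and 2 did not stand apart in hepatocyte markers, whose sums were 16.96 and 16.95 there and 16.85, 17.10 and 16.83 in adenomas 3 to 5. Their stellate cell and fibroblast sums were 11.91 and 12.87, against 13.41, 13.89 and 12.45. Adenomas 1 and 2 had the lowest 2 myeloid (12.77 and 11.59, against 13.29, 13.38 and 13.24) and B cell sums (7.44 and 7.57, against 8.26, 9.04 and 8.08). The same held for T and natural killer cell markers (9.72 and 9.56, against 9.77, 9.99 and 10.27). It did not hold for endothelial markers (11.64 and 11.67, against 11.58, 11.87 and 11.67). The part of these cells in the Tbx1 values was not tested.

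The adenoma and carcinoma effects were compared by their difference, adenoma effect minus carcinoma effect, which uses all 4 groups. It passed for 13 of the 44 genes, 4 of them higher and 9 lower, against 23.2% and 23.5% of all genes. The 9 with the lower adenoma effect were Hoxd10 (-6.40 ± 0.17, adjusted p = 5.2e-16), Hoxd8, Tbx1, Hoxd9, Hoxc8, Tbx20, Hoxd3, Hoxc4 and Tbx2. At least 2-fold it was lower for 8 of the 44 genes (18.2%), against 14.0% of all genes. For Tbx1 the difference of effects was -5.50 ± 0.75 (adjusted p = 4.6e-06), with the highest adenoma at 8.58 and the lowest carcinoma at 11.60. For Hoxc4 it was -1.93 ± 0.64 (adjusted p = 0.019) and missed the threshold without untreated arrays 3 and 4 (-1.83, adjusted p = 0.052). The 4 with the higher adenoma effect were Hoxb5 (1.06), Tbx18 (0.67), Tbx19 (0.49) and Hoxa2 (0.40). The call of Tbx19 ended in 14 of 28 alternatives (adjusted p up to 0.082), 11 of which left out 1 array. The adenoma effect was higher at least 2-fold for 1 of the 44 genes (2.27%), Hoxb5, against 11.0% of all genes.

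Adenomas set directly against carcinomas were higher for 8 genes and lower for 12, against 33.7% and 28.7% of all genes, and at least 2-fold for 1 and 9, against 11.7% and 14.7%. The genes higher in adenomas were Hoxa2, Hoxa5, Hoxb2, Hoxb5, Hoxb9, Hoxd13, Tbx18 and Tbx19, all by 0.26 to 1.08; the second probe set of Hoxd13 was lower (-0.94), so no direction is given for it here either. Of the olfactory receptor genes 21 of 38 were also higher in adenomas, with a median of 0.26. With each array centred on its median the split was 13 higher and 10 lower. The genes lower in adenomas included Hoxd1 (-0.49, adjusted p = 0.036) and Tbx21 (-0.37, adjusted p = 0.022), besides Hoxc4, Hoxc5 (-0.63), Hoxc8, Hoxd3, Hoxd8, Hoxd9, Hoxd10, Tbx1, Tbx2 and Tbx20. Tbx3, which rose in carcinomas too, did not pass (0.07, adjusted p = 0.86). The calls of Hoxa2, Hoxa5, Hoxb2, Hoxd1 and Tbx21 here ended when single arrays were left out, and their highest adjusted p over all alternatives was 0.13, 0.56, 0.065, 0.22 and 0.078. This comparison shares its arrays with both tumour comparisons.

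Phenobarbital alone left these genes without a call. In phenobarbital-treated against untreated non-tumour liver none of the 44 genes passed in limma, against 0.203% of all genes higher and 0.022% lower, and at an unadjusted p under 0.05 1 gene differed, Tbx18, against 5.88% of all genes. The differences lay between -0.32 for Tbx18 and 0.33 for Hoxb2, with SEs of 0.09 to 0.59, and the smallest adjusted p was 0.66. Tbx18 had 3.67, 3.39, 3.51, 3.63 and 3.71 in phenobarbital-treated non-tumour liver, against 3.50, 4.13, 3.78, 3.81 and 4.29 in untreated non-tumour liver. Over all comparisons 18 of the 44 genes passed in none, and their values on any array were between 3.13 and 7.74.

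The probe sets of the 17 genes with several were set side by side because the arrays report each of them separately. Both probe sets of Hoxd8 rose in carcinomas, and both of Hoxa10 and of Tbx19 fell. The second probe sets of Hoxa4 (-0.002), Tbx15 (-0.24) and Tbx18 (-0.09) did not pass in carcinomas, where those used fell. For Hoxd13, Tbx3 and Tbx20, probe sets passed in opposite directions there.

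**Figure D5:**
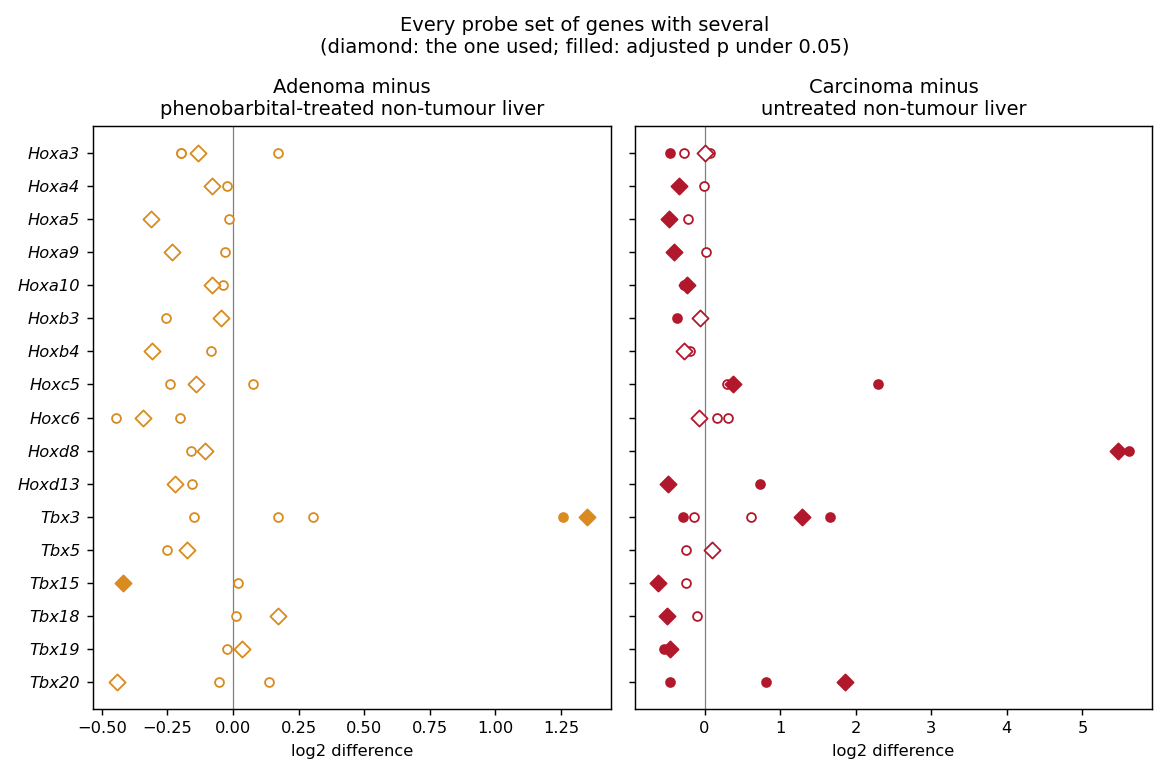
Log2 difference (x axis) of every single-symbol probe set of the 17 genes with several (y axis), in adenomas against phenobarbital-treated non-tumour liver (left) and in carcinomas against untreated non-tumour liver (right); diamonds are the probe sets used and filled symbols have adjusted p under 0.05 over all probe sets. Both Hoxd8 probe sets lie above 5 in carcinomas, and those of Hoxd13, Tbx3 and Tbx20 fall on both sides of 0.

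Genes that act with or on Hox and T-box genes were read from lists by role, from the same fit. Of 28 Polycomb genes, 9 rose and none fell in adenomas, and 19 rose and 1 fell in carcinomas, with a median difference of 0.96 in carcinomas against -0.12 over all genes. Cbx6 rose by 3.89 in carcinomas, Ezh2, the methyltransferase of histone H3 lysine 27, by 2.705, and Pcgf1 by 2.48, while Phf19 fell by 0.28. In adenomas Kdm2b rose by 1.01, Ezh2 by 0.86 and Phc1 by 0.78. Of 13 Trithorax-type genes and demethylases of the same lysine, 2 rose and none fell in adenomas (Kmt2d by 0.54 and Kdm6b by 0.31), and 9 rose and 1 fell in carcinomas (Ash2l by 2.12, Psip1 by 1.78 and Kdm6b by 1.52; Wdr5 fell by 0.37). Both groups of opposing factors thus held mostly rises among the genes that passed.

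Of 9 cofactors that bind DNA together with Hox proteins or regulate those that do, 1 rose and 1 fell in adenomas (Pbx3 by 0.97; Meis3 fell by 0.42). In carcinomas 5 rose and 3 fell: Pbxip1 rose by 2.02, Pbx3 by 1.32 and Meis2 by 0.67, while Meis3 fell by 0.65, Pknox2 fell by 0.57 and Pbx4 fell by 0.35. Of 16 retinoic acid genes, none rose and 3 fell in adenomas: Cyp26a1, which degrades retinoic acid (-2.15), the receptor gene Rarb (-1.03) and Dhrs3 (-0.71). In carcinomas 4 rose and 5 fell. Rarb rose by 2.75, the retinol dehydrogenase gene Rdh10 by 2.17 and the retinol transporter gene Stra6 by 1.59, and Cyp26a1 (-4.34) and the receptor genes Rxra (-2.83) and Rxrg (-2.21) fell. Rarb thus moved in opposite directions in the 2 kinds of tumour, and its difference of effects was -3.78 (adjusted p = 5.2e-06).

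Of 3 Cdx genes, which encode upstream regulators of Hox genes, none passed in adenomas and 2 fell in carcinomas (Cdx2 at -0.50 and Cdx4 at -0.24). Both falls lay within the range of the 38 olfactory receptor genes there (-0.83 to 0.03). Cdx2 was at the olfactory receptor level in every group, and what part of these falls is expression was not tested. Of 3 T-box genes with other names, none passed in adenomas and Mga rose by 1.29 in carcinomas. Of 4 genes reported to be repressed by TBX2 or TBX3, 2 rose in adenomas (Ndrg1 by 2.505 and Cdkn1a by 2.38) and 3 in carcinomas: Cdkn1a, which encodes the cell cycle inhibitor p21, by 4.48, Cdkn2a by 2.78 and Ndrg1 by 2.28. None of the 4 fell. Ndrg1 was also higher by 1.27 in phenobarbital-treated than in untreated non-tumour liver (adjusted p = 0.028), the only gene of these lists to pass there. Of 11 Wnt target genes, 9 rose and none fell in adenomas (Nkd1 by 3.04, Axin2 by 2.39 and Sp5 by 2.04), and 10 rose and 1 fell in carcinomas (Nkd1 by 7.39, Sp5 by 5.59 and Axin2 by 4.93; Lect2 fell by 4.55). The tumour comparisons with non-tumour liver share no arrays with each other, while carcinomas and phenobarbital-treated liver were both set against the same untreated samples.

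Markers of other cells moved with the tumour groups too. The 13 stellate cell and fibroblast markers summed to 11.9 to 13.9 in adenomas, 14.6 to 15.9 in carcinomas, 13.05 to 13.27 in non-tumour liver under phenobarbital and 12.7 to 13.6 in untreated non-tumour liver, and all 13 were above the olfactory receptor level in every group. The 5 cholangiocyte markers summed to 7.42 to 8.74 in adenomas, 8.64 to 11.4 in carcinomas, 7.66 to 8.01 in non-tumour liver under phenobarbital and 7.63 to 8.40 in untreated non-tumour liver. Among them only Krt7 rose in carcinomas, by 5.23, to a mean of 9.88. Krt19, Epcam and Sox9 did not pass there. Cftr fell by 0.39 in carcinomas and was at the olfactory receptor level throughout. The 6 kidney and adrenal markers reached 8.38 to 9.95 in carcinomas, against 8.22 to 8.39 in untreated non-tumour liver. Only Umod of these rose in carcinomas, by 4.75, to a mean of 8.51. Slc34a1, Nphs1, Cyp21a1 and Star fell, and Cyp11a1 did not pass. The 10 endothelial markers were lower in carcinomas, at 9.14 to 9.99, against 11.8 to 12.2 in untreated non-tumour liver. For 6 mesothelial markers the sums were 7.06 to 8.36 in carcinomas and 7.62 to 8.03 in untreated non-tumour liver, with Wt1, Msln, Upk3b and Gpm6a at the olfactory receptor level. Sums in carcinomas were 12.04 to 13.54 for 10 myeloid, 6.74 to 7.36 for 4 B cell and 10.1 to 11.1 for 8 pancreas or gut markers, against 11.4 to 12.4, 7.66 to 8.56 and 9.79 to 10.96 in untreated non-tumour liver. The part of any of these cells in the Hox and T-box differences was not tested.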

How the data were processed

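Total RNA of snap-frozen tissue was isolated with Trizol and labelled with biotin for Affymetrix arrays, per the labels' protocols. The authors deposited log2 expression values of 45037 probe sets on 20 arrays, and RMA is the tool named in the submitters' processing notes, without a version. RMA makes the distributions of the arrays alike, so a shift of all genes is removed and differences of dim genes are understated; array medians were 5.52 to 5.63. There is no read depth on arrays, so precision depends on how many there are.

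The platform annotation gave 34945 probe sets a single symbol (34741 matched RefSeq), with 932 having several and 9160 none. One probe set a gene, with the highest mean, gave 18193 genes, tested by moderated linear models (lmFit and eBayes of limma 3.58.1, R 4.3.3, two-sided) in 1 fit of 4 groups with 16 residual and 3.21 prior degrees of freedom, checked on simulated data. Replicate numbers were tested as pairs: same-numbered samples correlated between -0.11 and 0.07 in their deviations, so the main fit has no block. Values of every array are given for genes that passed at least 2-fold without overlap and for Tbx3, and others were named where they passed in any comparison; further array values were added after seeing the data, as were the olfactory receptor level and the order of carcinomas. Up to 3 genes a direction are named from each list. The members and lists were chosen with earlier results of these data known. No genome was used; promoters are RefSeq's. Tables were handled with Python 3.11.15 and pandas 2.3.3, plots with matplotlib 3.10.9. The 11 alternatives planned concerned probe sets, scaling, dim genes, weights, the block and arrays left out.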

Additional observations from a re-analysis of the deposited data

Results flagged for a closer look

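Of 176 groups of 5 arrays (44 genes in 4 groups), 16 had a highest or lowest array far from the other 4 by Dixon's criterion of 0.71, where chance gives about 1 in 20. In adenomas these were Hoxa11 in array 5 (4.33), Tbx20 in array 4 (5.83) and Tbx22 in array 2 (3.75), each the highest, and Tbx18 in array 3 (3.54), the lowest. In carcinomas array 3 was highest for Hoxa5 (7.28), Hoxa7 (7.31) and Hoxd13 (4.75), array 4 for Tbx3 (11.46) and array 5 for Hoxa10 (3.67), and array 1 was lowest for Tbx5 (4.69). In phenobarbital-treated non-tumour liver array 1 was highest for Hoxa3 (5.97) and array 3 for Hoxd12 (4.26). In untreated non-tumour liver array 3 was highest for Hoxa4 (3.96) and Hoxb13 (4.57), array 1 for Hoxb3 (5.87) and array 4 for Hoxd12 (3.98).

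The adenoma effect and the carcinoma effect differed by the interaction test for 13 genes. The adenoma effect minus the carcinoma effect was -6.40 for Hoxd10, -5.58 for Hoxd8, -5.50 for Tbx1, -5.42 for Hoxd9, -3.91 for Hoxc8, -2.30 for Tbx20, -2.05 for Hoxd3, -1.93 for Hoxc4 and -0.99 for Tbx2. It was 1.06 for Hoxb5, 0.67 for Tbx18, 0.49 for Tbx19 and 0.40 for Hoxa2.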

How the results depend on the processing

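Of 59 results of a gene in a comparison that passed, 39 passed under every alternative that gave a value and 20 lost their call under at least 1. Hoxd3, Hoxd8, Hoxd9, Hoxd10, Hoxc8, Tbx1, Tbx2, Tbx3 and Tbx20 kept their rise in carcinomas under every alternative. Hoxd13 reversed with the mean of its probe sets, to 0.13 in carcinomas against untreated non-tumour liver (adjusted p = 0.54) and -0.25 in adenomas against carcinomas (adjusted p = 0.24). Counts are given as higher and lower. With dim genes left out, 15 of the 44 genes and 12664 genes in all were tested, and the counts were 7 and 2 in carcinomas, 2 and 0 in adenomas, 2 and 7 in adenomas against carcinomas, and 0 higher for the difference of effects. This filter kept genes above the array median on at least 5 arrays, which the 5 carcinomas alone can meet. Hoxd9 and Hoxd10 passed it only through the carcinomas. The filter thus favours genes high in carcinomas, and its counts there are no separate check of their rise. In adenomas the mean of all probe sets gave 0 and 0, array weights 2 and 2, and 0 were lower with centred arrays, with the replicate block and without untreated arrays 3 and 4. In adenomas against carcinomas 13 were higher with centred arrays, which moved the split to 13 and 10, and 5 with array weights. Centring moved differences by -0.06 in carcinomas, 0.04 in adenomas and 0.08 between them. Leaving out each array in turn gave 11 to 14 and 11 to 13 in carcinomas, 1 to 2 and 0 to 2 in adenomas, 5 to 9 and 10 to 14 in adenomas against carcinomas, 3 to 5 and 9 to 12 for the difference of effects, and 0 and 0 for phenobarbital; the 5 came without carcinoma 2. Replicate numbers did not pair the samples, and the replicate block is given only for completeness. The cause of these changes was not tested, apart from the dim filter and arrays left out, which test fewer genes or samples.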
